A study of Homo sapiens with 10 samples.

Results

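Receptor tyrosine kinases are the cell-surface receptors through which most polypeptide growth factors act. The group described here holds 42 genes chosen by name, of 58735 genes in the deposited table. The names were set by gene family and no expression threshold was applied, but earlier results of these data were known when they were chosen. It covers the receptors of the EGF, PDGF, VEGF, FGF, insulin, MET, neurotrophin, TIE, TAM (TYRO3, AXL and MERTK), WNT-binding and ephrin families together with ALK and RET. They were measured by bulk RNA sequencing in 10 libraries of 2 groups, all made from CH157-MN, a human meningioma line kept in culture. The 5 ADC libraries come from cells harvested 3 days after 100 nM hSSTR2-MMAF, a humanised antibody against the somatostatin receptor SSTR2 that carries monomethyl auristatin F, a drug that blocks tubulin polymerisation. The 5 PBS libraries come from cells given phosphate-buffered saline, and the labels give a day of harvest for the treated cells only. The model is 1 line in culture, the labels do not say whether the libraries of a group are separate cultures, and no non-binding antibody or free drug is among the groups analysed here. All p-values given here hence rest on library-to-library spread, which may be technical.

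A receptor tyrosine kinase binds its ligand outside the cell, pairs with another receptor and phosphorylates tyrosines on its own tail, where adaptors such as GRB2 and SHC1 dock and start the RAS to ERK and PI3K to AKT cascades. Phosphatases, ubiquitin ligases of the CBL family and transcriptional feedback genes such as the Sproutys limit the signal, and surface proteases can cut receptors or their ligands free. In meningioma, PDGFRB and the EGF receptor are long-studied members of the class, and AXL and EPHA2 are common in mesenchymal-type tumour lines. Messenger RNA was measured here, not receptor protein or phosphorylation.

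ADC cells held more mRNA of PDGFRB (2.18-fold), PDGFRA (1.46-fold), ERBB2 (1.33-fold) and FGFR1 (1.10-fold) and less of AXL (0.793-fold), EPHA2 (0.882-fold), MET (0.894-fold) and TYRO3 (0.853-fold) than PBS cells. The genes lie at chr5:150113837-150155872, chr4:54229097-54298247, chr17:39687914-39730426, chr8:38400215-38468834, chr19:41219203-41261766, chr1:16124337-16156087, chr7:116672390-116798386 and chr15:41557675-41583586, in that order and in the coordinates of the deposited table, for which the submitters' processing notes name hg38. Of the 42 receptors, 24 had enough counts to be tested, and these 8 were called at an adjusted p under 0.05, or 33.3% of the 24, against 20.8% of all 14504 genes tested. The 4 higher receptors were 16.7% of the 24, against 10.8% of all genes tested that were called higher. The 4 lower ones were also 16.7%, against 10% of all genes called lower. In 9 of the 24, or 37.5%, no ADC library overlapped with a PBS library, against 14.2% of all genes tested, and these 9 are the 8 called receptors and PTK7. No test of these shares against the background was made, and the receptors that passed the filter on low counts are not all members. The median log2 fold change was 0.036 over the 24 receptors and -0.0022 over all genes tested, and the median size of change was 0.171 against 0.123. Each adjusted p comes from edgeR's quasi-likelihood test with Benjamini-Hochberg adjustment over all genes, two-sided, and log2 fold changes are positive where ADC cells were higher. A value in parentheses before an adjusted p is such a log2 fold change, and each ± is an SD over the 5 libraries of a group. CPM here means counts per 1e6 counts scaled with TMM (trimmed mean of M values) factors, which is used to compare 1 gene between libraries.

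**Figure D1:**
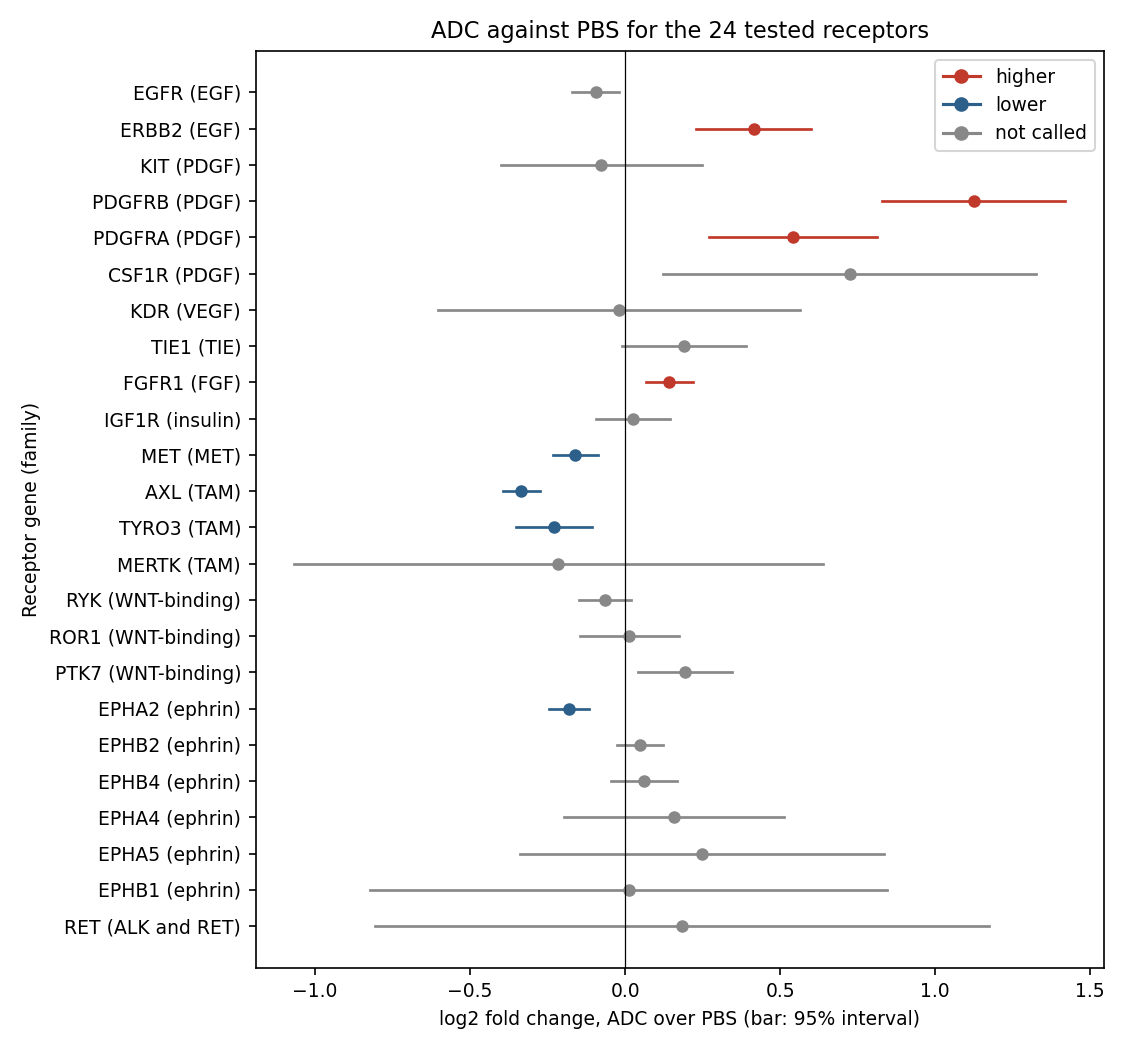
Change of each of the 24 tested receptors, grouped by family on the vertical axis. Points are log2 fold changes (ADC over PBS) and bars their 95% intervals, with red for a call higher, blue for a call lower and grey for no call. PDGFRB lies farthest to the right at 1.12 and AXL has the lowest called value at -0.34, while the widest bars belong to the scarce RET, EPHB1 and MERTK.

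The 250 bases before the RefSeq start are shown for PDGFRB, the tested receptor with the largest fold change, and for AXL and EPHA2. AXL and EPHA2 were the 2 receptors with the highest mRNA level per gene length, both lower in ADC cells. They were taken from RefSeq (GRCh38.p14), and such sequences were used for 39 of the 42 members, all but ERBB3, FGFR1 and FLT4. FGFR1 was left out by the settings of the search, so its absence does not show a gap in RefSeq. Where that table lists several starts, as for AXL, the start nearest the 5′ end in the deposited table was used. Which start the cells used was not measured. All are written 5′ to 3′ on the gene's strand, and capitals mark matches to 1 of 5 short motifs searched on both strands. The motifs were the GC box (GGGCGG), the CCAAT box (CCAAT), the TATA box (TATAAA), the AP-1 site (TGANTCA) and the NF-kB site, and matches to different motifs were counted separately where they overlapped.
PDGFRB, chr5:150155846-150156095, minus strand: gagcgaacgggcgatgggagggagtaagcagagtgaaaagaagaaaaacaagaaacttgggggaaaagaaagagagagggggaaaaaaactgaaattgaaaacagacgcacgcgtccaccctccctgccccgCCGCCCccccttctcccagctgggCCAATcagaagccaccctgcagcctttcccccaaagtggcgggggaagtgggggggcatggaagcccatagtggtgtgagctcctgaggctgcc
AXL, chr19:41218973-41219222, plus strand: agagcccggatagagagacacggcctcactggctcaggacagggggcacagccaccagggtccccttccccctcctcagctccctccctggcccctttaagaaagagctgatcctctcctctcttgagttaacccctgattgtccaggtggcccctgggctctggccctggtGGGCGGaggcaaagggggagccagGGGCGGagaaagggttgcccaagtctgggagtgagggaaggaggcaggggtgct
EPHA2, chr1:16156070-16156319, minus strand: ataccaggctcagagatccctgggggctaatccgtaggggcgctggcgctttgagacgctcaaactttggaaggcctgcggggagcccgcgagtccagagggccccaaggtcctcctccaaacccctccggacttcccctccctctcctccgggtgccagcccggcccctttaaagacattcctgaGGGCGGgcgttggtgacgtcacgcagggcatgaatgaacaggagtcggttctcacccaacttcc
In the window of PDGFRB a GC box lay on the other strand at position -118 and a CCAAT box at -94, counted from the RefSeq start to the first base of the match. AXL had GC boxes at -78 and -54, and EPHA2 had 1 at -64, so that the GC box was present in a higher gene and in both lower genes. In these 3 windows the last 27 bases (PDGFRB), 20 bases (AXL) and 18 bases (EPHA2) lie inside the gene as the deposited table bounds it. Windows of 23 tested receptors were searched, and the RefSeq start lay within 200 bases of the deposited 5′ end in 21 of them, but 1537 bases away in TYRO3 and 197459 bases away in EPHB1. The limit of 200 bases was chosen after the distances were seen. Of the 21, 17 held a GC box, 5 a CCAAT box, 3 an AP-1 match, 1 an NF-kB match and 0 a TATA box. Over all 35116 windows of the same length in the table the shares were 42.6%, 32.0%, 6.57%, 9.96% and 10.7%, in the same order. The 3 AP-1 matches were in PDGFRA and ERBB2, both higher, whose RefSeq starts lie 196 and 180 bases inside the gene as deposited, and in CSF1R. Outside the limit, the window of TYRO3, which was lower, also held an AP-1 match, at -220. The AP-1 match was thus present in higher and in lower receptors. These matches describe letters and not binding.

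The repertoire of untreated CH157-MN cells was led by AXL. Levels between genes are compared as TPM (transcript shares of each library, which divide by gene length). In PBS cells, 21 of the 42 receptors averaged at least 1 CPM and 12 averaged at least 5 TPM. The order began with AXL at 640 ± 18.1 TPM, EPHA2 at 252 ± 9.13, EGFR at 104 ± 5.30 and MET at 81.7 ± 3.44 TPM (SD, n = 5). RYK (44.5 TPM), EPHB2 (43.3), EPHB4 (36.6), FGFR1 (28.1), TYRO3 (14.2), ROR1 (10.6), IGF1R (9.95) and PTK7 (6.91) followed. TIE1 (4.77 TPM), ERBB2 (3.37), KIT (2.75), PDGFRB (2.06), PDGFRA (1.82) and EPHA4 (1.62) came next. CSF1R (0.941 TPM), KDR (0.890) and EPHA5 (0.425) ended the order of the 21. The library ranges of neighbours overlapped in 10 of 20 neighbouring pairs, so that RYK, EPHB2 and EPHB4, then ROR1 and IGF1R, and then each neighbour from ERBB2 down were not separated from the next. Above RYK the library ranges of every neighbouring pair were separate. These ranges do not cover error from the gene length, which is the union of all annotated exons and not the transcript that the cells made. Before division by length, EGFR (335 CPM) lay above EPHA2 (272 CPM) in PBS cells.

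The sum of the receptors' TPM was 1140 ± 42.2 TPM in ADC cells and 1292 ± 36.5 TPM in PBS cells (SD, n = 5 each), and the ADC libraries (1079 to 1194 TPM) did not overlap with the PBS libraries (1262 to 1338 TPM). AXL made up 45.1 ± 0.700% of that sum in ADC cells and 49.5 ± 0.308% in PBS cells. AXL, EPHA2, EGFR and MET together made up 80.1 ± 0.510% in ADC cells and 83.4 ± 0.289% in PBS cells. The share of AXL ran from 44.1% to 45.9% over the ADC libraries and from 49.2% to 50.03% over the PBS libraries, with no overlap. In ADC cells, 13 receptors averaged at least 5 TPM, the PBS list with TIE1 added (5.53 TPM in ADC cells and 4.77 in PBS cells), and 21 averaged at least 1 CPM. In bulk RNA, fewer cells with a transcript and less of it per cell cannot be told apart.

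**Figure D2:**
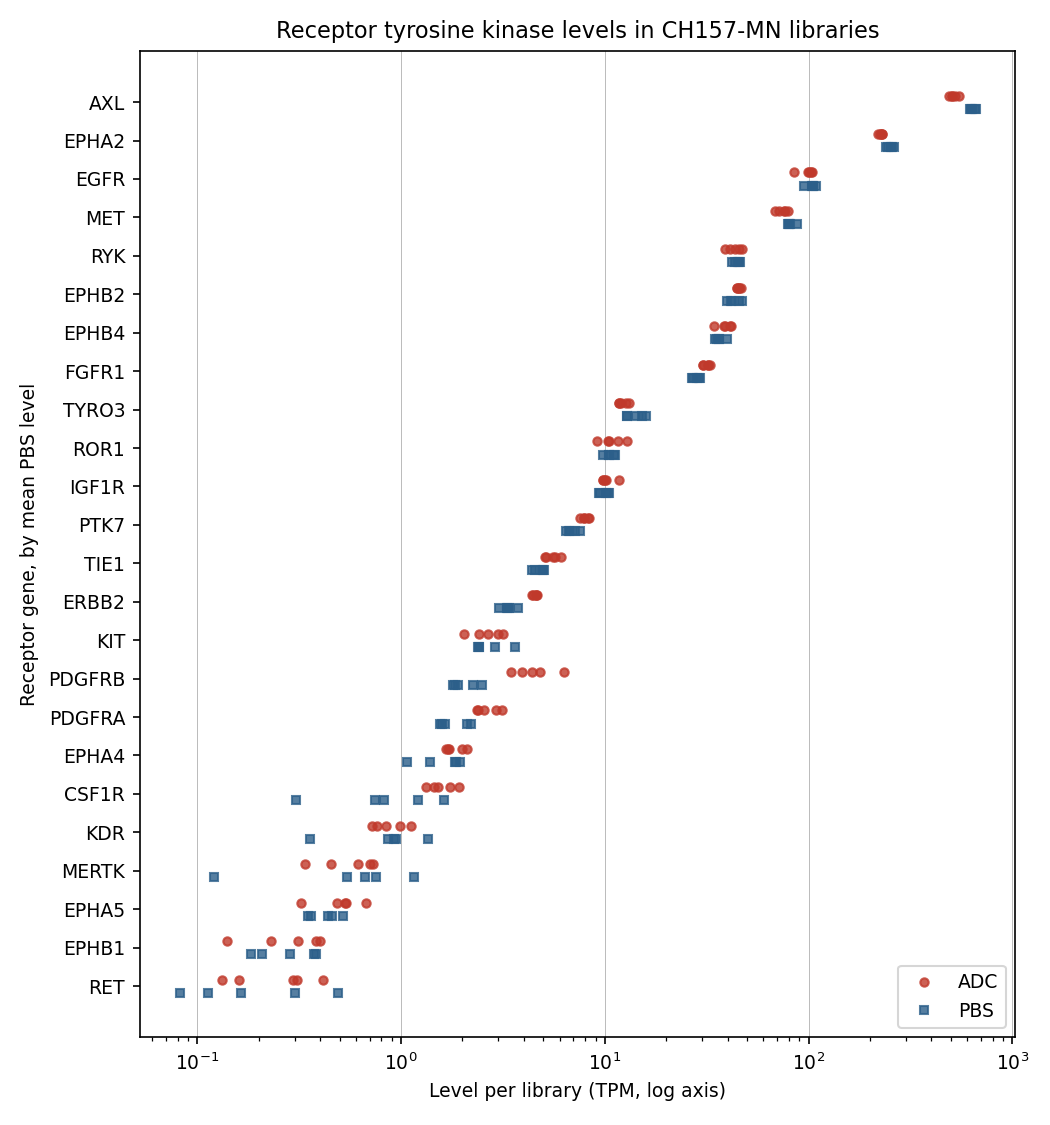
Level of the 24 tested receptors in each library, in TPM on a log axis, ordered by mean PBS level from top to bottom, with ADC libraries as red circles above PBS libraries as blue squares. AXL lies between 489 and 661 TPM and RET at the bottom, and the ADC points lie right of the PBS points for PDGFRB and left of them for AXL.

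Library totals lay between 28638057 and 36463724 counts in ADC and between 28262162 and 34473795 in PBS, so that 3 counts, the most that an observed 0 allows, equal 0.0823 to 0.106 CPM. Such limits cover counting error only. Small counts (2 to 21) were even numbers more often than odd, at 65.4% to 67.3% per library, so that a fragment may have been counted with both mates, and the limits would then be too low. The first principal component explained 24.4% of the variance, with all ADC libraries on 1 side and all PBS libraries on the other. Of 8 meningioma markers 3 reached 1 CPM in either group, VIM among them, while the progesterone receptor gene PGR was at 0 in every library and SSTR2, the antibody's target, was at 0.430 ± 0.103 CPM in ADC cells and 0.297 ± 0.263 CPM in PBS cells (0.54, adjusted p = 0.496). CDH2 was called lower (-0.12, adjusted p = 0.017) and was the only 1 of 5 tested meningioma markers with a call. The list was thus present only in part, and how specific its members are to meningioma was not tested. Epithelial markers summed to at most 0.643 CPM in ADC libraries and 0.595 CPM in PBS libraries.

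**Figure D3:**
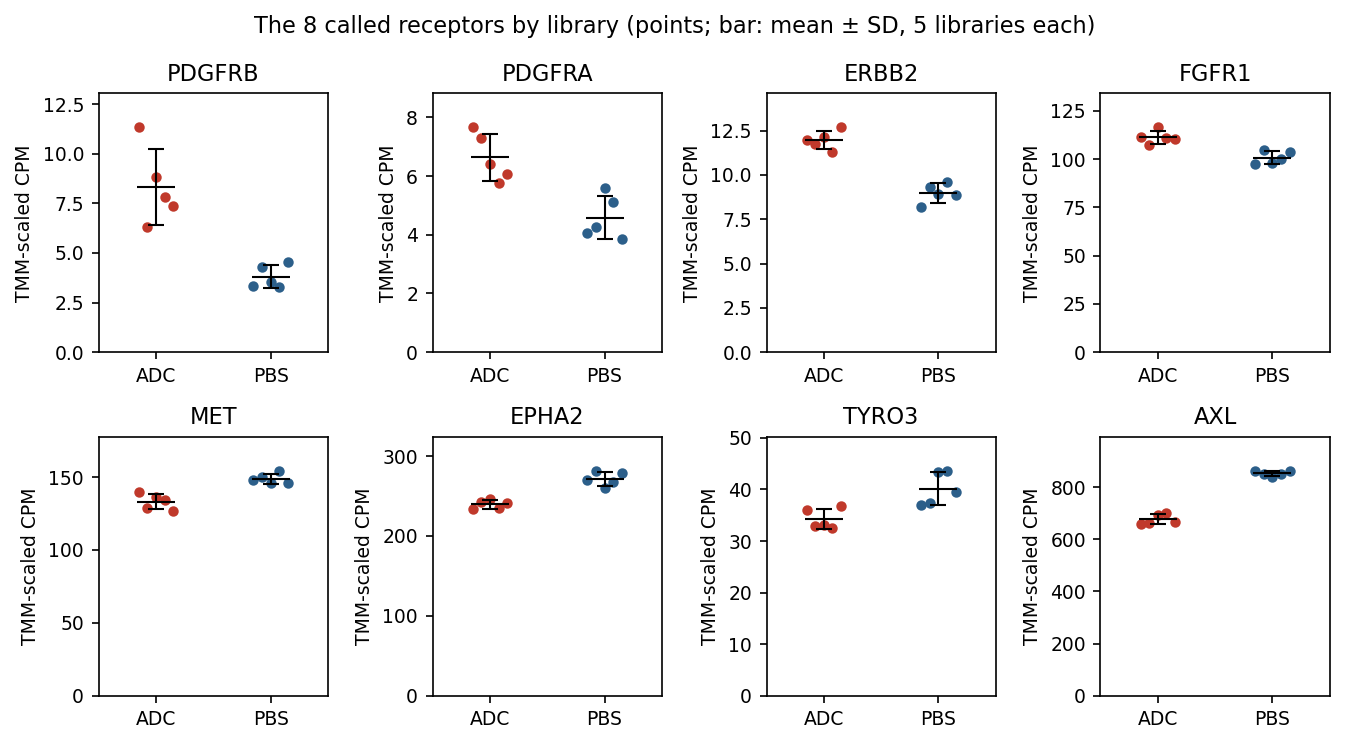
Level of the 8 called receptors in each library, in TMM-scaled CPM on axes from 0, with ADC in red left of PBS in blue. Points are libraries and bars the mean ± SD of 5 libraries, and in none of the 8 panels do the ADC and PBS points overlap, with the PDGFRB ADC libraries between 6.31 and 11.3 CPM.

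Both PDGF receptors were higher in ADC cells, PDGFRB with the largest fold change of the 24 tested receptors. PDGFRB, the receptor for PDGF-B and PDGF-D on mesenchymal and perivascular cells, had 11.3, 6.31, 8.80, 7.80 and 7.36 CPM in ADC libraries 1 to 5, against 3.36, 4.30, 3.54, 3.29 and 4.56 CPM in PBS libraries 1 to 5. The lowest ADC library lay above the highest PBS library, and ADC library 1 was the highest of all. The mean was 8.32 ± 1.91 CPM in ADC cells and 3.81 ± 0.581 CPM in PBS cells (SD, n = 5 each; log2 fold change 1.12, SE 0.145, adjusted p = 8.7e-07). PDGFRA, which also binds PDGF-A and PDGF-C, had 7.66, 7.30, 6.40, 5.77 and 6.06 CPM in ADC libraries 1 to 5, against 4.07, 4.27, 5.59, 5.13 and 3.86 CPM in PBS libraries 1 to 5. The groups did not overlap, although ADC library 4 (5.77 CPM) lay close to PBS library 3 (5.59 CPM). Its mean was 6.64 ± 0.809 CPM in ADC cells and 4.58 ± 0.740 CPM in PBS cells (log2 fold change 0.54, SE 0.132, adjusted p = 0.0034). Per length, PDGFRB stood at 1.71 ± 0.325 times PDGFRA in ADC cells and at 1.17 ± 0.324 times in PBS cells (SD, n = 5 each), and the ADC libraries (1.18 to 2.02) overlapped with the PBS libraries (0.865 to 1.61). PDGFRA shares 15.8% of its exonic bases with AC058822.1 on the same strand, and that gene had 0 counts in all 10 libraries.

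The other 2 members of the family among the 42 are the receptors for macrophage colony-stimulating factor and stem cell factor. CSF1R had 1.97, 1.75, 1.93, 2.23 and 2.63 CPM in ADC libraries 1 to 5, against 1.01, 2.22, 0.409, 1.06 and 1.59 CPM in PBS libraries 1 to 5. The highest PBS library lay among the ADC libraries and PBS library 3 was the lowest, and the receptor was not called (log2 fold change 0.72, SE 0.294, adjusted p = 0.081, 95% interval 0.12 to 1.32). CSF1R passed the threshold without PBS library 2 (log2 fold change 1.03, adjusted p = 0.013) and with limma-voom (adjusted p = 0.044), in a range of adjusted p from 0.013 to 0.200 over 18 alternatives. CSF1R and PDGFRB are neighbours on the minus strand of chromosome 5, with 464 bases between them. KIT, on chromosome 4 like PDGFRA and KDR, ranged between 2.98 and 4.36 CPM in the ADC libraries and between 3.36 and 5.15 CPM in the PBS libraries and was not called (-0.077, adjusted p = 0.788, 95% interval -0.40 to 0.25). The summed level of the 4 family members among the 42 was 11.5 ± 1.54 TPM in ADC cells and 7.57 ± 0.888 TPM in PBS cells (SD, n = 5 each).

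Among the ligands of these 4 receptors, PDGFC was the most abundant per length (62.7 TPM in ADC cells and 56.3 TPM in PBS cells). PDGFC was higher, at 89.4 ± 4.16 CPM in ADC cells and 81.5 ± 3.35 CPM in PBS cells (log2 fold change 0.13, SE 0.0422, adjusted p = 0.022). CSF1, the ligand of CSF1R, was higher too, at 40.8 ± 3.23 CPM in ADC cells and 33.6 ± 1.23 CPM in PBS cells (log2 fold change 0.28, SE 0.0582, adjusted p = 7.1e-04). PDGFA (0.12, adjusted p = 0.342) and the KIT ligand KITLG (-0.072, adjusted p = 0.668) were not called. PDGFB and PDGFD, whose products bind PDGFRB, and IL34, the second ligand of CSF1R, were too scarce to be tested, with at most 4, 14 and 6 counts in an ADC library and at most 2, 31 and 6 counts in a PBS library. Among these ligand genes, transcripts of PDGFA and PDGFC, whose products bind PDGFRA, were thus far above those of PDGFB and PDGFD.

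Of the EGF receptor family, ERBB2, the ligand-less partner of the other family members, was higher while EGFR was not called. ERBB2 had 11.97, 11.8, 12.1, 11.3 and 12.7 CPM in ADC libraries 1 to 5, against 8.18, 9.34, 8.93, 9.62 and 8.86 CPM in PBS libraries 1 to 5. Every ADC library exceeded every PBS library, and the mean was 11.97 ± 0.508 CPM in ADC cells and 8.98 ± 0.547 CPM in PBS cells (SD, n = 5 each; log2 fold change 0.41, SE 0.0904, adjusted p = 0.0011). ERBB2 shares 7.41% of its exonic bases with genes on the other strand, MIEN1 and PGAP3, and counts of the 2 strands may not be separated. EGFR had 324, 322, 319.8, 325 and 279 CPM in ADC libraries 1 to 5, against 343, 315, 345, 338 and 337 CPM in PBS libraries 1 to 5. ADC library 5 and PBS library 2 were each the lowest of their group, and the ranges overlapped. Its log2 fold change was -0.095 (SE 0.0376, 95% interval -0.17 to -0.02, adjusted p = 0.072), and without PBS library 2 it passed the threshold at -0.12 (adjusted p = 0.024, in a range from 0.024 to 0.264 over 18 alternatives). Per length EGFR stood far above ERBB2, at 98.4 TPM against 4.54 TPM in ADC cells and at 104 TPM against 3.37 TPM in PBS cells. ERBB3, which relays neuregulin signals through ERBB2, had at most 30 counts in an ADC library and at most 6 in a PBS library. ERBB4 had 8 counts in ADC library 3 and 0 in the other 9 libraries.

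The ligands of the EGF family moved in both directions. TGFA, transforming growth factor alpha, was higher at 28.5 ± 4.38 CPM in ADC cells and 19.6 ± 1.83 CPM in PBS cells (log2 fold change 0.54, SE 0.0854, adjusted p = 2.2e-05). NRG1, the neuregulin that binds ERBB3 and ERBB4, was lower at 40.4 ± 2.08 CPM in ADC cells and 45.7 ± 1.68 CPM in PBS cells (log2 fold change -0.18, SE 0.0520, adjusted p = 0.012). HBEGF was the most abundant ligand of the family per length, at 131 TPM in ADC cells and 130 TPM in PBS cells, and was not called (-0.0052, adjusted p = 0.946). AREG (0.59, adjusted p = 0.209) and NRG2 (0.81, adjusted p = 0.139) were not called, and EGF, EREG, BTC, EPGN, NRG3 and NRG4 had at most 12 counts in any library.

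FGFR1 was the only member of its family with enough counts to be tested, and it was higher by a small margin. FGFR1 (on chromosome 8) had 111, 107, 116, 111 and 110.2 CPM in ADC libraries 1 to 5, against 97.6, 104, 97.8, 100.1 and 104 CPM in PBS libraries 1 to 5. The lowest ADC library (107 CPM) was close to the highest PBS library (104 CPM), but the groups did not overlap. The mean was 111 ± 3.28 CPM in ADC cells and 101 ± 3.24 CPM in PBS cells (SD, n = 5 each; log2 fold change 0.14, SE 0.0373, adjusted p = 0.006). FGFR4 had 2 to 18 counts in ADC libraries and 2 to 6 in PBS libraries, FGFR3 had at most 12 in an ADC library and 9 in a PBS library, and FGFR2 had 0 in all 10. The FGFR1 ligand FGF2, basic fibroblast growth factor, was lower at 48.8 ± 4.95 CPM in ADC cells and 56.1 ± 3.16 CPM in PBS cells (log2 fold change -0.20, SE 0.0579, adjusted p = 0.011), and it shares 11.9% of its exonic bases with NUDT6 on the other strand. FGF1 (-0.17, adjusted p = 0.058), FGF5 (-0.12, adjusted p = 0.163) and FGF22 (-0.45, adjusted p = 0.496) were not called. The other 14 FGF genes of the list had at most 8 counts in any library.

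AXL, TYRO3 and MERTK form the TAM family, which binds GAS6 and protein S and takes part in the clearing of dead cells and in the survival of tumour cells. AXL, the receptor with the highest level, had 658, 663, 695, 701 and 666 CPM in ADC libraries 1 to 5, against 863, 851, 839, 851 and 862 CPM in PBS libraries 1 to 5. The highest ADC library (701 CPM) lay well below the lowest PBS library (839 CPM). The mean was 676 ± 19.8 CPM in ADC cells and 853 ± 9.94 CPM in PBS cells (SD, n = 5 each; log2 fold change -0.34, SE 0.0289, adjusted p = 3.4e-10), and it had the smallest adjusted p of the 24 receptors. TYRO3 had 36.1, 32.96, 33.1, 32.5 and 36.8 CPM in ADC libraries 1 to 5, against 36.96, 37.3, 43.4, 43.6 and 39.6 CPM in PBS libraries 1 to 5. The groups did not overlap, but ADC library 5 and PBS library 1 nearly met. The mean was 34.3 ± 1.99 CPM in ADC cells and 40.2 ± 3.21 CPM in PBS cells (log2 fold change -0.23, SE 0.0601, adjusted p = 0.0062). MERTK was scarce, between 0.409 and 0.875 CPM in the ADC libraries and between 0.149 and 1.45 CPM in the PBS libraries, and not called (-0.22, adjusted p = 0.774, 95% interval -1.07 to 0.64). The summed family level was 527 ± 22.4 TPM in ADC cells and 655 ± 18.7 TPM in PBS cells.

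The ligand GAS6 was higher while AXL and TYRO3 were lower, at 100.5 ± 5.86 CPM in ADC cells and 80.7 ± 6.43 CPM in PBS cells (SD, n = 5 each; log2 fold change 0.32, SE 0.0487, adjusted p = 1.4e-05). It shares 7.01% of its exonic bases with GAS6-AS1 on the other strand. PROS1, which encodes protein S, averaged 3.63 ± 1.38 CPM in ADC cells and 2.83 ± 0.770 CPM in PBS cells and was not called (0.35, adjusted p = 0.272).

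MET, the receptor for hepatocyte growth factor, was lower, with 139.5, 129, 136, 134 and 127 CPM in ADC libraries 1 to 5, against 148, 150.1, 146, 154 and 146 CPM in PBS libraries 1 to 5. The highest ADC library lay below the lowest PBS library, and the mean was 133 ± 5.20 CPM in ADC cells and 149 ± 3.52 CPM in PBS cells (SD, n = 5 each; log2 fold change -0.16, SE 0.0356, adjusted p = 0.0013). MST1R, the other receptor of the family, had at most 6 counts in an ADC library and at most 2 in a PBS library. The ligand HGF had at most 2 counts in an ADC library and 0 in every PBS library, and MST1, the ligand of MST1R, was not called (-0.095, adjusted p = 0.907). The MET co-receptor CD44 was abundant at 1583 ± 28.8 CPM in ADC cells and 1545 ± 32.6 CPM in PBS cells and not called (0.035, adjusted p = 0.394).

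The ephrin receptors bind ligands on neighbouring cells and guide cell sorting and repulsion, and 10 of them are among the 42. EPHA2 was lower and the other 5 that could be tested were not called. EPHA2 had 233, 243, 246, 235 and 241 CPM in ADC libraries 1 to 5, against 269.7, 282, 259.8, 268 and 279 CPM in PBS libraries 1 to 5. The groups did not overlap, and the mean was 239.5 ± 5.25 CPM in ADC cells and 272 ± 8.73 CPM in PBS cells (SD, n = 5 each; log2 fold change -0.18, SE 0.0318, adjusted p = 9.0e-05). EPHB2, a receptor for B-type ephrins, ranged between 138 and 147 CPM in the ADC libraries and between 131 and 147 CPM in the PBS libraries (0.048, adjusted p = 0.398, 95% interval -0.03 to 0.12). EPHB4, the receptor of EFNB2, ranged between 56.6 and 67.4 CPM in the ADC libraries and between 58.1 and 68.3 CPM in the PBS libraries (0.062, adjusted p = 0.451, 95% interval -0.04 to 0.17). Both intervals lie within 0.17 of 0 on the log2 scale on either side. EPHA4 (0.16, 95% interval -0.20 to 0.51), EPHA5 (0.25, -0.34 to 0.83) and EPHB1 (0.012, -0.82 to 0.85) were scarcer and had wider intervals. EPHB3 had at most 12 counts in an ADC library and 10 in a PBS library, EPHA7 at most 2 in an ADC library and 0 in every PBS library, and EPHB6 0 in every ADC library and at most 6 in a PBS library. EPHA3 had 0 in all 10 libraries.

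Of the ephrin ligands, EFNB2 was higher at 52.9 ± 4.75 CPM in ADC cells and 46.3 ± 2.22 CPM in PBS cells (log2 fold change 0.19, SE 0.0561, adjusted p = 0.014), and it shares 26.2% of its exonic bases with AL138689.2 on the other strand. EFNB3 was higher at a low level, with 16 to 39 counts in ADC libraries and 8 to 19 in PBS libraries (log2 fold change 1.27, SE 0.387, adjusted p = 0.018). EFNB1 (-0.017, adjusted p = 0.921), EFNA5 (0.024, adjusted p = 0.843), EFNA4 (0.25, adjusted p = 0.220), EFNA3 (0.12, adjusted p = 0.910) and EFNA1 (0.60, adjusted p = 0.370) were not called, and EFNA2 had at most 2 counts. EFNA1, the best-known ligand of EPHA2, averaged 0.480 ± 0.166 CPM in ADC cells and 0.315 ± 0.0187 CPM in PBS cells.

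The WNT-binding receptors RYK, ROR1, ROR2 and PTK7 take part in WNT signalling outside the beta-catenin route, and none of the 3 with counts passed the threshold. PTK7, a catalytically inactive receptor of planar cell polarity, had 18.7, 17.5, 18.4, 17.7 and 19.98 CPM in ADC libraries 1 to 5, against 15.9, 15.6, 15.7, 17.01 and 16.4 CPM in PBS libraries 1 to 5. Its lowest ADC library exceeded its highest PBS library, but the adjusted p missed the threshold (log2 fold change 0.19, SE 0.0740, adjusted p = 0.062, 95% interval 0.04 to 0.35). It passed with DESeq2 (adjusted p = 0.031), with scaling by library size alone (0.038) and when genes under a mean of 1 CPM were left out (0.049), and its adjusted p ranged from 0.031 to 0.144 over 18 alternatives. RYK ranged between 82.96 and 93.6 CPM in the ADC libraries and between 89.6 and 95.7 CPM in the PBS libraries (-0.065, adjusted p = 0.290, 95% interval -0.15 to 0.02). ROR1 ranged between 16.3 and 21.4 CPM in the ADC libraries and between 17.3 and 19.3 CPM in the PBS libraries (0.014, adjusted p = 0.930, 95% interval -0.15 to 0.17). ROR2, a receptor of WNT5A, had 0 counts in all 10 libraries. WNT5A, which also binds ROR1 and RYK, was higher at 186 ± 8.91 CPM in ADC cells and 153 ± 3.04 CPM in PBS cells (log2 fold change 0.28, SE 0.0355, adjusted p = 6.1e-07).

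IGF1R, the receptor for insulin-like growth factors, was not called and its interval was narrow. It had 35.5, 34.8, 35.9, 40.8 and 35.9 CPM in ADC libraries 1 to 5, against 37.3, 35.2, 37.9, 35.9 and 33.3 CPM in PBS libraries 1 to 5, with ADC library 4 the highest (0.025, adjusted p = 0.810, 95% interval -0.09 to 0.14). INSR, the insulin receptor gene, had 0 to 7 counts in ADC libraries and 0 to 6 in PBS libraries, against 1023 to 1272 in ADC libraries and 1016 to 1254 in PBS libraries for IGF1R.

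The endothelial receptors were scarce apart from TIE1. TIE1, an orphan receptor of vessels, ranged between 8.83 and 10.3 CPM in the ADC libraries and between 7.48 and 8.92 CPM in the PBS libraries and was not called (0.19, adjusted p = 0.182, 95% interval -0.01 to 0.39). KDR, the main VEGF receptor, ranged between 1.19 and 1.82 CPM in the ADC libraries and between 0.622 and 2.32 CPM in the PBS libraries (-0.02, adjusted p = 0.974, 95% interval -0.60 to 0.56). FLT1 had at most 5 counts in an ADC library and 6 in a PBS library, TEK 2 counts in ADC library 3 and 0 elsewhere, and FLT4 0 in all 10. Of 10 endothelial markers, 3 reached 1 CPM in ADC cells and 2 in PBS cells, EMCN was at 0 in every library and CDH5 had at most 7 counts. The markers' sum ran from 13.3 to 16.02 CPM in the ADC libraries (median 15.1) and from 11.9 to 14.7 CPM in the PBS libraries (median 12.7), most of it from ROBO4. PECAM1 was called higher, at 1.98 ± 0.337 CPM in ADC cells and 0.576 ± 0.112 CPM in PBS cells (log2 fold change 1.77, SE 0.283, adjusted p = 2.4e-05). Of 5 endothelial markers tested, PECAM1 was the only call. The part of such cells in the TIE1 and PDGF receptor values was not tested. Although KDR and FLT1 were scarce, their ligands VEGFA (139 ± 11.8 CPM in ADC cells and 106 ± 2.74 CPM in PBS cells; log2 fold change 0.39, SE 0.0445, adjusted p = 8.2e-08) and VEGFB (0.21, adjusted p = 0.014) were higher. ANGPT1, the ligand of TEK, was lower (log2 fold change -0.46, SE 0.0965, adjusted p = 8.0e-04).

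The remaining receptors were scarce or at 0. RET, the receptor of the GDNF family of ligands, ranged between 0.234 and 0.723 CPM in the ADC libraries and between 0.149 and 0.886 CPM in the PBS libraries, and its interval (-0.81 to 1.17) allows changes in either direction. ALK had at most 1 count in an ADC library and 2 in a PBS library. NTRK2 and NTRK3 had at most 1 and 2 counts in an ADC library and 0 in every PBS library. In all, 18 of the 42 receptors were not tested. Of these, 4 had 0 counts in all 10 libraries (EPHA3, FGFR2, FLT4 and ROR2), and the other 14 had at most 30 counts in any library. Leukocyte markers, which matter for CSF1R, summed to 17.9 to 26.1 CPM in ADC libraries (median 22.1) and 21.3 to 24.2 CPM in PBS libraries (median 22.8). Nearly all of that sum was LAPTM5. TYROBP and CD3E were at 0, PTPRC had at most 2 counts, and neither of the 2 that could be tested was called. Markers of Schwann cells or melanocytes, which share KIT and ERBB3, summed to 6.30 to 7.97 CPM in ADC libraries and 7.08 to 10.2 CPM in PBS libraries, with SOX10 and S100B at 0. Of receptor tyrosine kinases outside the 42, 4 of 13 could be tested and 1 was called. The median size of change over these 4 was 0.748, against 0.123 over all genes tested. Of the 3 not called, 1 was called lower under some alternatives. DDR1, a collagen receptor, was higher at 13.1 ± 1.56 CPM in ADC cells and 6.76 ± 0.741 CPM in PBS cells (log2 fold change 0.96, SE 0.105, adjusted p = 4.3e-08), while the other collagen receptor DDR2 was not called (0.08, adjusted p = 0.181).

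The 6 lists of genes around the receptors are set against all genes tested, of which 20.8% were called, 10.8% higher and 10% lower. Of 35 tested ligand genes over all families, 9 were higher and 3 lower (34.3% called), with a median log2 fold change of 0.10 against -0.0022 over all genes. Without ADC library 5, 5 ligands were lower, and without ADC library 2 the number was 2. Of 14 tested co-receptors, 6 were higher and 0 lower (42.9% called, median 0.13). Of 24 tested adaptors and effectors, 7 were higher and 1 lower (33.3% called, median 0.030), and without PBS library 2 the lower ones were 2. Of 28 tested negative regulators, 8 were higher and 1 lower (32.1% called, median 0.063). Of 16 surface proteases and their inhibitors, 3 were higher and 0 lower (18.8% called, close to the share over all genes, median 0.074). Of 12 genes that ERK signalling is known to induce, 6 were higher and 5 lower (91.7% called, median 0.11). These are counts from the test over all genes, and no list was tested as a list. Over all genes, 51.8% of calls were higher, against 63.3% when libraries were scaled by their size alone.

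**Figure D4:**
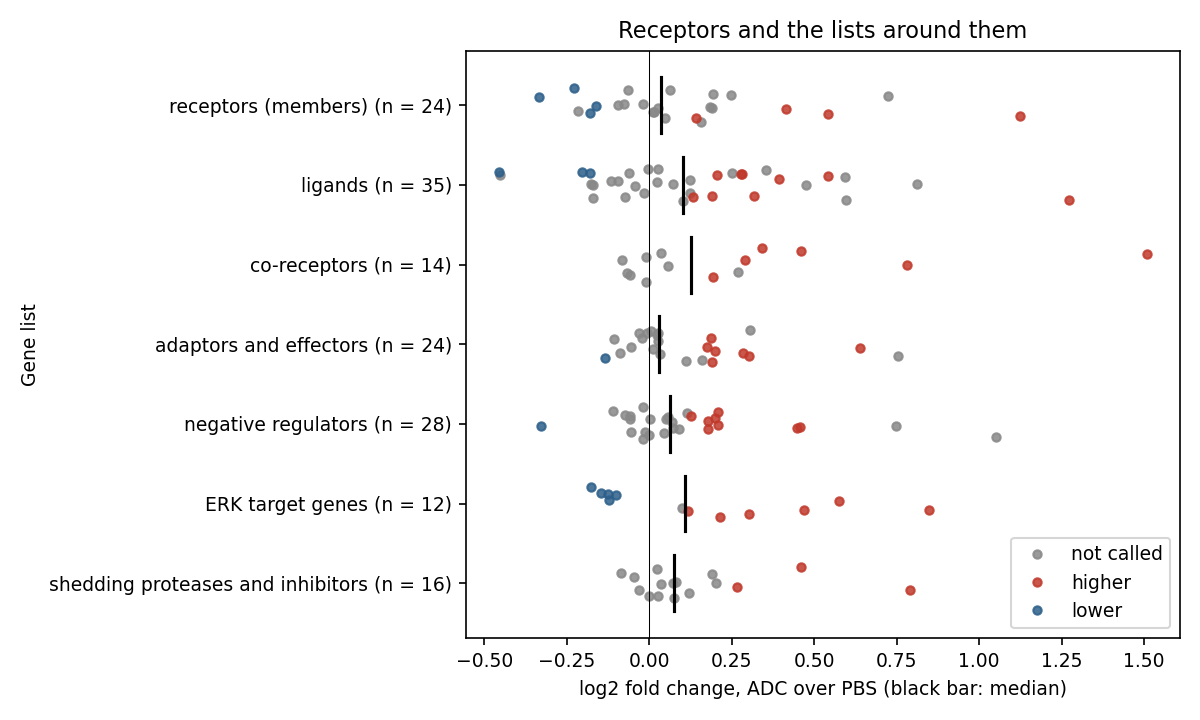
Log2 fold change (ADC over PBS) of each tested gene in the receptor list and 6 lists of genes around it, 1 row per list, with red for a call higher, blue for a call lower and grey for no call. Black bars are list medians, which lie between 0.030 and 0.13, and blue points are present in the receptor, ligand and ERK target rows in numbers of 4, 3 and 5, with 1 each in the adaptor and negative regulator rows.

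Among the co-receptors, the calls with the smallest adjusted p were those of PLXNB2, SDC3, GPC6 and NRP2. PLXNB2, a plexin that associates with MET, was at 99.2 ± 3.58 CPM in ADC cells and 72.1 ± 5.93 CPM in PBS cells (log2 fold change 0.46, SE 0.0470, adjusted p = 1.2e-08). SDC3, a syndecan heparan sulfate proteoglycan that presents growth factors, was at 91.6 ± 2.61 CPM in ADC cells and 72.4 ± 2.90 CPM in PBS cells (log2 fold change 0.34, SE 0.0406, adjusted p = 2.3e-07). GPC6, a glypican, was at 10.3 ± 0.555 CPM in ADC cells and 6.03 ± 0.846 CPM in PBS cells (log2 fold change 0.78, SE 0.109, adjusted p = 3.5e-06). NRP2, a neuropilin that binds VEGF-C and semaphorins, was at 78.4 ± 5.21 CPM in ADC cells and 64.3 ± 4.73 CPM in PBS cells (log2 fold change 0.29, SE 0.0517, adjusted p = 1.1e-04). The related NRP1 was not called (0.057, adjusted p = 0.219). SDC4 and SDC2 were the other co-receptors called, SDC2 at 0.585 ± 0.159 CPM in ADC cells and 0.203 ± 0.169 CPM in PBS cells.

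Among adaptors, GAB2, a docking protein for PI3K and SHP2, was at 12.1 ± 0.544 CPM in ADC cells and 7.80 ± 1.06 CPM in PBS cells (log2 fold change 0.64, SE 0.101, adjusted p = 2.2e-05). IRS1, the insulin and IGF receptor substrate (0.19, adjusted p = 9.3e-04), SH2B1 (0.28, adjusted p = 0.0014) and VAV2 (0.18, adjusted p = 0.0047) were also higher. SOS2, GAB1 and SHC3 were the other adaptors called higher. PTPN11, which encodes the SHP2 phosphatase that relays signals to RAS, was lower at 397 ± 18.1 CPM in ADC cells and 436 ± 16.7 CPM in PBS cells (log2 fold change -0.13, SE 0.0343, adjusted p = 0.0049).

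The inhibitors of EGF receptor signalling LRIG1 and ERRFI1 had the smallest adjusted p of the negative regulators. LRIG1, a membrane protein that promotes degradation of EGF family receptors, was at 179.9 ± 7.51 CPM in ADC cells and 131 ± 3.76 CPM in PBS cells (SD, n = 5 each; log2 fold change 0.46, SE 0.0358, adjusted p = 4.1e-11), and it shares 12.9% of its exonic bases with SLC25A26 on the other strand. ERRFI1, also called MIG6, binds the EGFR kinase domain and was at 285 ± 15.6 CPM in ADC cells and 209 ± 7.23 CPM in PBS cells (log2 fold change 0.45, SE 0.0362, adjusted p = 7.7e-11). PTPRF, a receptor phosphatase (0.18, adjusted p = 4.3e-05), and SPRY2, a Sprouty (0.20, adjusted p = 1.0e-04), were higher by less. PTPN12, PTPRJ, GRB10 and RASA1 were the other 4 called higher. UBASH3B, a CBL-binding phosphatase, was lower at 172 ± 7.43 CPM in ADC cells and 217 ± 5.70 CPM in PBS cells (log2 fold change -0.33, SE 0.0345, adjusted p = 1.9e-08).

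The ERK target list was split. IER3 (156 ± 9.21 CPM in ADC cells and 105 ± 5.99 CPM in PBS cells; log2 fold change 0.58, SE 0.0426, adjusted p = 1.1e-11) and PHLDA1 (156 ± 6.18 CPM in ADC cells and 112 ± 0.575 CPM in PBS cells; log2 fold change 0.47, SE 0.0353, adjusted p = 1.6e-11) were higher. EGR1, an immediate early factor, was at 27.8 ± 2.57 CPM in ADC cells and 15.4 ± 1.25 CPM in PBS cells (log2 fold change 0.85, SE 0.0768, adjusted p = 9.3e-10), and ETV1 was also higher (0.30, adjusted p = 4.9e-04), as were DUSP6 and ETV5. Among the lower ones, FOSL1 was at 550.3 ± 24.8 CPM in ADC cells and 609 ± 17.7 CPM in PBS cells (log2 fold change -0.15, SE 0.0327, adjusted p = 0.0015), and DUSP5 (-0.18, adjusted p = 0.0017), MYC (-0.12, adjusted p = 0.0057) and CCND1 (-0.10, adjusted p = 0.011) were lower, as was ETV4. DUSP4 was the 1 target not called (0.098, adjusted p = 0.320). The phosphatase genes DUSP6 and DUSP5, whose products feed back on ERK, thus had opposite signs (0.21 and -0.18). DUSP6 shares 40.5% of its exonic bases with AC024909.2 on the other strand, IER3 26.5% with IER3-AS1, PHLDA1 16.5% with AC011611.3 and AC011611.4, and CCND1 10.3% with LTO1.

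Of the proteases that cut receptors and ligands from the surface, ADAM10 (-0.048, adjusted p = 0.403) and ADAM17 (0.037, adjusted p = 0.617), which shed AXL, MET and the EGF ligands, were not called. TIMP3, the inhibitor of ADAM17 and of matrix metalloproteinases, was at 326 ± 18.1 CPM in ADC cells and 189 ± 5.56 CPM in PBS cells (SD, n = 5 each; log2 fold change 0.79, SE 0.0360, adjusted p = 1.7e-16). MMP14, a membrane metalloproteinase, was at 419 ± 14.3 CPM in ADC cells and 348 ± 11.8 CPM in PBS cells (log2 fold change 0.27, SE 0.0323, adjusted p = 3.0e-07). RHBDF1, the iRhom protein that helps ADAM17 mature, was at 8.75 ± 1.02 CPM in ADC cells and 6.36 ± 1.08 CPM in PBS cells (log2 fold change 0.46, SE 0.121, adjusted p = 0.006).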

How the data were processed

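RNA of CH157-MN cells was sequenced in 5 ADC and 5 PBS libraries, grouped by their treatment labels. The authors deposited whole-number counts per gene with a gene length, and no normalisation was applied to them. Per the labels' protocols, mRNA was selected on poly-T beads, and the protocol does not say whether these libraries keep the strand. The submitters' processing notes name HISAT2, HISAT, TopHat2 and hg38 with no role. Which program counted reads, with what strand setting and on which annotation, is not given in the sources used here. The deposited length equals the exon union of GENCODE for all 58735 genes and was used for TPM.

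Counts were scaled with TMM factors (0.979 to 1.02) and filtered with filterByExpr (minimum count 10, minimum total 15), which left 14504 genes. ADC was compared with PBS in R 4.3.3 by the quasi-likelihood test of edgeR 4.0.16 with an adjusted p threshold of 0.05. SE is the size of the log2 fold change divided by the root of F, and 95% intervals use the fit's degrees of freedom. DESeq2 1.42.0, limma-voom (limma 3.58.1), other scalings and filters, halved counts, a replicate block and the omission of each library were alternatives. No library repeated another of its group within counting noise (the ratio of chi-square to degrees of freedom was 5.18 to 16.5 over pairs), and each was counted as 1 sample. That ratio sets pairs against counting noise alone and cannot show whether libraries come from separate cultures. The common coefficient of variation was 7.60%. No batch is given in the labels.

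The members and lists were chosen with earlier results of these data known. By rule, every member is accounted for, and those called or at 5 TPM or more are given by library or range. Of each list the 4 called genes with the smallest adjusted p in each direction are named, with the ligands of families that have a called receptor. Other names were chosen after their values were seen.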

Additional observations from a re-analysis of the deposited data

Results flagged for a closer look

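Within-group outliers were looked for among the 24 tested receptors in each group of 5 libraries, as a gap between an extreme library and its nearest neighbour above 0.71 of the group's range. Of 48 such groups 4 were past that value, and chance alone puts about 1 of 20 groups past it. EGFR in ADC library 5 was at 279.1 CPM, with the next ADC library at 319.8 CPM (gap over range 0.896). EGFR in PBS library 2 was at 314.5 CPM, with the next PBS library at 336.8 CPM (0.732). EPHB2 in ADC library 4 was at 138.1 CPM, with the next ADC library at 146.1 CPM (0.925). IGF1R in ADC library 4 was at 40.78 CPM, with the next ADC library at 35.94 CPM (0.804). None of the 3 receptors was called with all 10 libraries. EGFR passed the threshold without PBS library 2 (log2 fold change -0.12, adjusted p = 0.024), while EPHB2 and IGF1R did not pass it under any alternative that was run. With 1 library left out, ADC library 5 among them, the EGFR log2 fold change ranged from -0.12 to -0.054. Its adjusted p reached 0.264 over 18 alternatives, so the change was both stronger and weaker than with all 10 libraries.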

How the results depend on the processing

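The 8 called receptors kept their direction and their call under every alternative run (DESeq2, limma-voom, library size alone, DESeq2 size factors, no low-count filter, a mean of at least 1 CPM, halved counts, replicate block, and omission of each library). PDGFRB ranged from 0.99 to 1.21 with 1 library left out, PDGFRA from 0.48 to 0.62, and AXL from -0.34 to -0.33. Over 427 member values, 394 kept direction and side, 9 came to pass the threshold (PTK7, EGFR and CSF1R, 3 each) and 24 changed sign, all of receptors that were not called. KDR was 0.080 with limma-voom, 0.00089 with library size alone and 0.048 with the replicate block, MERTK was 0.057 with limma-voom, and EPHB1 was -0.0045 with the replicate block. With 1 library left out, ROR1 ranged from -0.035 to 0.059, IGF1R from -0.011 to 0.047, KIT from -0.13 to 0.038, KDR from -0.22 to 0.19, MERTK from -0.49 to 0.13, EPHB1 from -0.13 to 0.19 and RET from -0.039 to 0.66. The cause was not tested.

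Among the marker lists, the 1 lower meningioma marker became 0 with library size alone and without PBS library 1, and 2 without PBS library 4, and 1 was called higher with library size alone, with the replicate block and without PBS library 2. Called endothelial markers became 2 without the low-count filter, and 1 leukocyte marker was higher without PBS library 5. A Schwann or melanocyte marker was lower without PBS library 1, and 1 of the other receptor tyrosine kinases was lower with DESeq2, limma-voom, no low-count filter and the replicate block, and without ADC library 4.

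Members called higher numbered 4 or 5 and lower 4 or 5 throughout, and all genes called higher 1311 to 1835 and lower 1063 to 1632. In PBS cells 23 receptors reached 0.5 CPM and 18 reached 2 CPM. For pairs of an ADC and a PBS library, the correlation of deviations was -0.0072 to 0.040 over 5 pairs with the same replicate number. It was -0.054 to 0.068 over 20 pairs with different numbers. Such correlations over all tested genes cannot show whether libraries of the same number shared a culture or a preparation. With the number as a block, 5 members were higher, CSF1R added (0.85, adjusted p = 0.031), and 5 lower, EGFR added (-0.097, adjusted p = 0.037), with 1632 genes higher and 1520 lower. Depth limits the receptors under 1 CPM, such as RET and EPHB1, and the 18 not tested.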
